A study of Mus musculus with 8 samples.

Results

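Potassium channels set the resting potential of a cell and bring its membrane back after a signal. They comprise pore-forming subunits, which are voltage-gated, inwardly rectifying, leak (two-pore) or ligand-activated, and accessory subunits, which bind to the pore-forming subunits and change their gating or trafficking. In the retina, the inner segments of photoreceptors carry an outward potassium current through Kv channels that hold a modifier subunit, Müller glia take up potassium through inward rectifiers, and bipolar, amacrine and ganglion cells shape their responses with Kv, KCNQ and calcium-activated channels.

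The 87 genes described here are the mouse Kcn genes whose symbol is Kcn, 1 or more letters and a number, and which held at least 10 counts summed over 8 retinal libraries. The tables listed 92 such symbols. Of these, 3 (Kcnj8, Kcnj10 and Kcnj13) were left out by name and 2 did not reach 10 counts. In all, 26900 of 55213 listed genes reached that limit and were tested together with the 87.

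Whole retinas of 8 germ-free (GF) male C57Bl/6 mice were compared, 1 library per mouse, to ask how a high-fat diet relates to retinal RNA when no gut microbes are present. Mice on the normal diet (GF-ND) carried the numbers 9, 10, 11 and 12, and mice on the high-fat diet with 23% saturated fat (GF-HFD) the numbers 13, 15, 16 and 19. Both groups were kept germ-free, entered the feeding at 7 weeks of age, stayed on the diet for 8 weeks and were 15 weeks old at the end. Since whole retinas were taken, fewer cells of a type and less RNA per cell cannot be told apart.

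Library totals lay between 39258006 and 44357518 counts. All 9 rod genes of a marker list were detected in every library and took 3.31% to 7.24% of counts. Among the libraries, 2 stood apart in lens genes. The mean log2 CPM (counts relative to the TMM-scaled library total, where TMM is edgeR's trimmed-mean scaling) of 17 lens genes, mostly crystallins and lens membrane proteins, was 11.05 in mouse 11 (GF-ND) and 7.85 in mouse 19 (GF-HFD), against 1.99 to 4.70 in the other 6 libraries, and none of the 17 was at 0 in any library. Lens genes took 6.90% of counts in mouse 11 and 1.20% in mouse 19. The mean log2 CPM of the rod list was lowest in mouse 11, at 10.86, against 11.39 to 11.87 in the other 7. By diet, 9 of 9 rod genes were fitted higher in GF-HFD, with a median log2 fold change of 0.31 and 1 at an unadjusted edgeR p under 0.05. All ganglion cell (9, median 0.23), microglia (8, median 0.38) and endothelial genes (7, median 0.28) were also fitted higher, against 46.3% of all genes tested. In the amacrine, bipolar and cone lists 8, 6 and 6 of 9 were higher, and in the lens list 0 of 17. The part of cell content in the members' differences was not tested. The mean log2 CPM of 11 fibroblast genes was highest in mice 19 (4.25) and 16, against 0.45 to 2.65 in the other 6. The mean over muscle genes was 1.78 in mouse 13, against -1.80 to -0.72 in the other 7, and pigment epithelium genes were highest in mouse 11 (5.38), then in mouse 16 (4.73) and mouse 19 (4.25). Counts of calls are given with and without the libraries high in lens genes.

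The pore-forming members share the selectivity filter, the stretch of the pore that strips water from potassium ions and lets them pass in single file. Its core is a glycine, an aromatic residue and a second glycine, preceded by a serine or threonine and any 1 residue. The coding sequence of this stretch is shown for 7 members that the results turn on, with the codons of the glycine, the middle residue and the second glycine in capitals. Sequences are from GRCm38 with GENCODE vM21 transcripts and are written on the coding strand.
Kcnv2, chr19:27333648-27333674, plus strand: atctccaccgtgGGCTATGGAgacatg
Kcng4, chr8:119625904-119625930, minus strand: atgacgaccgtgGGCTATGGGgacatg
Kcng1, chr2:168262635-168262661, minus strand: atgacaaccgtaGGCTACGGAgacatg
Kcnn1, chr8:70850651-70850677, minus strand: ttcttgtccattGGCTATGGAgacatg
Kcnj14, chr7:45819627-45819653, minus strand: cagacgtccataGGCTATGGTgtgcgc
Kcnt1, chr2:25894361-25894387, plus strand: ttctcaactgtgGGCTTCGGTgatgtg
Kcnk9, pore nearer the C terminus, chr15:72512713-72512739, minus strand: ttgactactataGGGTTCGGCgatttt

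The middle residue is tyrosine in the first 5 and phenylalanine in Kcnt1 and in the Kcnk9 pore shown. All 72 pore-forming members held at least 1 match to the motif (serine or threonine, any residue, glycine, then tyrosine, phenylalanine or leucine, then glycine), and 0 of the 15 accessory members did. Of the 72, 58 held 1 match and 14 held 2. All 12 two-pore members held 2 matches, 1 for each pore of the subunit, and the other 2 with a pair were Kcna6 and Kcnh2, whose extra match had leucine in the middle. Among 21530 protein-coding genes, 5.43% held a match, so the motif alone does not mark a channel. Over the 27 bases shown, Kcnv2 and Kcng4 shared 23 bases, Kcng4 and Kcng1 also 23, and Kcnt1 and Kcnj14 only 11.

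The family took 0.485% to 0.668% of counts in a library. By CPM per kilobase of exon, a scale on which levels of different genes can be set side by side, the mean over 8 libraries was 222.8 for Kcnj14, an inward rectifier, and 123.2 for Kcnv2, a modifier Kv subunit of photoreceptors. Over the libraries Kcnj14 ranged from 137.8 to 274.4 and Kcnv2 from 84.16 to 137.6, so the ranges did not overlap. Kcnab2, a cytoplasmic Kv beta subunit, followed at 63.7, then Kcne2, a single-span accessory subunit, at 31.8, the Kv1 subunit Kcna5 at 30.6, the G-protein-gated inward rectifier Kcnj9 at 23.7, the large-conductance calcium-activated channel Kcnma1 at 17.96, the ERG channel Kcnh2 at 17.2 and the Kv3 subunit Kcnc1 at 15.2.

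Among these genes, the order held in all 8 libraries for Kcnv2 over Kcnab2, Kcnab2 over Kcne2, Kcna5 over Kcnj9 and Kcnj9 over Kcnma1. Kcnma1 stood above Kcnh2 in 6 of 8 libraries, Kcnh2 above Kcnc1 in 7 and Kcne2 above Kcna5 in 5, so the ranks within these pairs were not separated in every mouse. Within other subfamilies the highest member per kilobase was Kcnd3 among Kv4 channels, Kcnk1 among two-pore channels, Kcnip4 among Kv4-binding calcium sensors, Kcnn1 among small-conductance calcium-activated channels, Kcns2, Kcnf1 and Kcng4 among silent Kv subunits, Kcnmb2 among large-conductance beta subunits, and Kcnt1 and Kcnu1 among sodium-activated and pH-gated channels. Kcnu1, a channel known from sperm, reached 1.57 CPM.

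**Figure D1:**
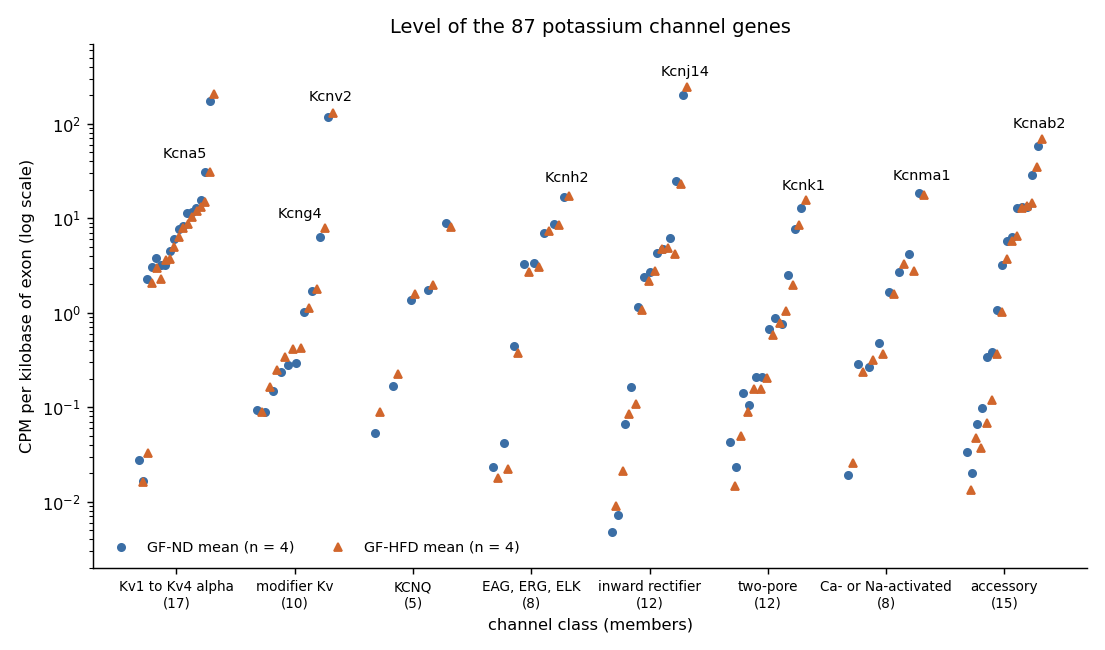
Mean level of each of the 87 genes in GF-ND (circles) and GF-HFD (triangles) retinas, in CPM per kilobase of exon on a log scale, by channel class with the number of members in parentheses. Kcnj14 and Kcnv2 lie above 100 in both groups, and Kcnab2, the highest accessory member, at 63.7 on average.

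Kcnv2 and Kcnj14 had larger SDs among GF-ND than among GF-HFD mice, at 115.3 against 31.0 CPM for Kcnv2 and 115.6 against 54.9 CPM for Kcnj14 (n = 4 each), a difference that was not tested. Kcnv2 stood at 685.2, 659.6, 429.9 and 611.7 CPM in GF-ND mice 9, 10, 11 and 12 and at 645.0, 702.6, 667.6 and 631.8 CPM in GF-HFD mice 13, 15, 16 and 19. Kcnj14 stood at 630.5, 567.8, 374.4 and 601.5 CPM in GF-ND and at 664.4, 745.5, 629.3 and 629.1 CPM in GF-HFD mice. Both were lowest in mouse 11, the library with the lowest rod list, and the groups overlapped for each. The fitted log2 fold change, GF-HFD over GF-ND, was 0.15 (SE 0.14) for Kcnv2 and 0.30 (SE 0.15) for Kcnj14. Without mouse 11 it was 0.03 (SE 0.08) for Kcnv2 and 0.16 (SE 0.09) for Kcnj14, in the same direction. The rod list ran the same way, with a median log2 fold change of 0.31 and a mean log2 CPM of 11.39 to 11.51 in GF-ND mice without mouse 11, against 11.51 to 11.87 in GF-HFD mice. The part of rod content in these differences was not tested.

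No member passed the test between diets at an adjusted p of 0.05 in edgeR's quasi-likelihood test with Benjamini-Hochberg adjustment over all genes tested. The smallest adjusted p among them was 0.649, and 0% of all 26900 genes passed. In DESeq2, 53 of all genes and 0 members passed. At an unadjusted p of 0.05 the edgeR test called 8 of 87 members (9.20%), against 7.38% of all genes. Of these, 5 were higher in GF-HFD (5.75% of members, against 2.85% of all genes) and 3 lower (3.45%, against 4.53%). These shares were not matched for level. Among members at 10 CPM or more, 9.09% were called higher and 6.82% lower, against 5.16% and 3.54% of all genes at that level. At the thresholds named by the study, an unadjusted p of 0.01 with a log2 fold change beyond 1, 0 members and 0.457% of all genes were called.

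Kcng4, a Kv6 subunit that forms no channel alone and joins other Kv subunits, had the smallest p. It stood at 24.80, 24.01, 25.02 and 22.08 CPM in GF-ND and at 28.91, 29.44, 29.89 and 31.30 CPM in GF-HFD mice. All GF-HFD libraries lay above all GF-ND libraries. The log2 fold change was 0.32 (SE 0.08, unadjusted edgeR p = 0.0030), and the two-sided exact permutation test of the log2 CPM gave p = 0.0286, the smallest that 4 against 4 allow. Any gene whose groups do not overlap gets this permutation p, here and below, so it restates the lack of overlap. The unadjusted p stayed under 0.05 in all 21 settings tried, with log2 fold changes from 0.26 to 0.34. The mean ± SD was 24.0 ± 1.34 CPM in GF-ND and 29.9 ± 1.02 CPM in GF-HFD mice (n = 4 each).

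Kcng1, another Kv6 subunit, was measured near the lower end of detection, with 12, 12, 22 and 20 counts in GF-ND and 34, 25, 30 and 36 counts in GF-HFD libraries. In CPM these were 0.29, 0.30, 0.52 and 0.48 in GF-ND and 0.81, 0.59, 0.69 and 0.85 in GF-HFD mice. Again the groups did not overlap. Its log2 fold change was 0.88 (SE 0.33, unadjusted edgeR p = 0.022; exact permutation p = 0.0286), and the unadjusted p missed 0.05 in 5 of 20 settings. The remaining Kv6 members, Kcng2 and Kcng3, had log2 fold changes of 0.56 (SE 0.41) and 0.75 (SE 0.42) with overlapping groups.

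Kcnab2, the beta subunit with the highest level among accessory members, stood at 316.0, 330.0, 330.1 and 338.3 CPM in GF-ND and at 400.2, 409.2, 360.2 and 358.4 CPM in GF-HFD mice. The groups did not overlap, and mice 13 and 15 were the highest. Between diets it differed by a log2 fold change of 0.22 (SE 0.08, unadjusted edgeR p = 0.022; exact permutation p = 0.0286). It lost an unadjusted p under 0.05 in 6 of 21 settings, library totals in place of TMM scaling among them. Summed over all 15 accessory members, the level was 600.0 to 644.2 CPM in GF-ND and 661.4 to 730.1 CPM in GF-HFD mice, of which Kcnab2 made up the largest part.

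Kcne2, a subunit that associates with KCNQ and ERG channels, stood at 52.62, 46.24, 47.82 and 58.66 CPM in GF-ND and at 65.73, 64.06, 57.06 and 57.80 CPM in GF-HFD mice. GF-ND mouse 12 lay above GF-HFD mice 16 and 19, so the groups overlapped. A log2 fold change of 0.25 was fitted (SE 0.10, unadjusted edgeR p = 0.024; exact permutation p = 0.0857), and its unadjusted p missed 0.05 in 6 of 21 settings.

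Kcnn1, a small-conductance calcium-activated channel, stood at 12.29, 10.96, 11.96 and 14.21 CPM in GF-ND and at 15.76, 15.51, 15.22 and 14.35 CPM in GF-HFD mice. The groups did not overlap, but GF-ND mouse 12 and GF-HFD mouse 19 lay close together. The log2 fold change was 0.30 (SE 0.11, unadjusted edgeR p = 0.024; exact permutation p = 0.0286), with an unadjusted p over 0.05 in 5 of 21 settings.

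Kcnt1, the sodium-activated channel, was the member with the smallest p among those lower in GF-HFD. It stood at 33.55, 58.70, 30.45 and 37.27 CPM in GF-ND and at 24.83, 27.12, 30.83 and 21.82 CPM in GF-HFD mice. GF-HFD mouse 16 lay just above GF-ND mouse 11, and GF-ND mouse 10 was far above the rest. The log2 fold change was -0.61 (SE 0.20, unadjusted edgeR p = 0.012; exact permutation p = 0.0571). The unadjusted p stayed under 0.05 in all 21 settings, with log2 fold changes from -0.72 to -0.37, the smallest in size being that without mouse 10.

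Kcnk9, an acid-sensitive two-pore leak channel, stood at 28.56, 37.72, 28.73 and 27.75 CPM in GF-ND and at 22.83, 26.59, 25.64 and 21.49 CPM in GF-HFD mice. Every GF-HFD library lay below every GF-ND library, with mouse 10 highest as for Kcnt1. The log2 fold change was -0.35 (SE 0.12, unadjusted edgeR p = 0.018; exact permutation p = 0.0286), and the unadjusted p missed 0.05 in 1 of 21 settings, the one without mouse 19.

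Kcnd1, a Kv4 subunit of the A-type current, was the most variable of the 8. It stood at 15.26, 25.43, 9.51 and 29.23 CPM in GF-ND and at 14.21, 10.66, 11.24 and 12.01 CPM in GF-HFD mice. GF-ND mouse 11 was the lowest of all 8 libraries and mice 10 and 12 the highest. The log2 fold change was -0.72 (SE 0.30, unadjusted edgeR p = 0.036; exact permutation p = 0.229). Without mouse 11 it was -0.95 (SE 0.19), and Kcnd1 was then the 1 member with an adjusted p under 0.05 in edgeR (adjusted p = 0.0436), where 1.60% of all genes passed. Without mouse 12 it was -0.48 (SE 0.29) and without mouse 10 -0.59 (SE 0.32), neither at an unadjusted p under 0.05. The unadjusted p missed 0.05 in 7 of the 21 settings.

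**Figure D2:**
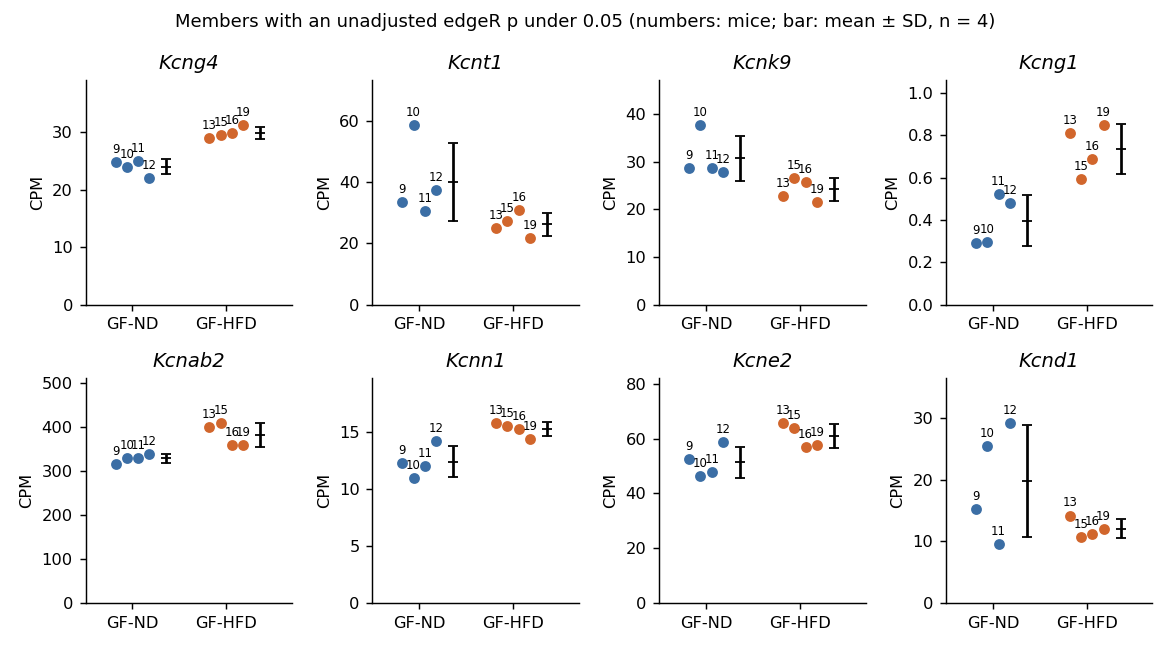
Level in CPM (axes start at 0) of the 8 members with an unadjusted edgeR p under 0.05, 1 point per mouse with its number, and mean ± SD of the 4 mice of each group. Kcng4, Kcng1, Kcnab2 and Kcnn1 are higher and Kcnk9 is lower in GF-HFD with no overlap, while Kcnt1, Kcne2 and Kcnd1 overlap.

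The groups did not overlap in 5 members (5.75% of 87), 4 of them higher and 1 lower in GF-HFD. Among all genes tested, 4.83% had no overlap. The members' share thus lay near the background.

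By channel class, the 10 modifier Kv subunits (Kcnf, Kcng, Kcns and Kcnv genes) had the highest median log2 fold change, 0.42, with 9 of 10 fitted higher in GF-HFD and 2 at an unadjusted p under 0.05. The median of all 26900 genes was -0.03, with 46.3% fitted higher and 7.38% at an unadjusted p under 0.05. Within the modifier Kv class, Kcns3 was fitted at 0.54 (SE 0.28) and Kcns2, Kcnf1 and Kcnv2 at 0.07, 0.12 and 0.15. Most members of this class were weakly expressed. With genes kept only at 10 CPM or more in at least 4 libraries, 2 of the 10 remained, Kcng4 and Kcnv2, with a median of 0.17. The 5 KCNQ genes had a median of 0.23, with 4 of 5 fitted higher and 0 called. This median ranged from 0.11 without mouse 12 to 0.46 without mouse 11 and was -0.05 with the same filter, which left 2 of the 5.

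The 17 pore-forming Kv1 to Kv4 members had a median of 0.05, with Kcnd1 the 1 called. Kcna5, Kcnc1 and Kcnd3 were fitted at 0.01 (SE 0.08), -0.06 (SE 0.09) and 0.04 (SE 0.09). Kcna6, fitted at 0.05, shares 39.6% of its exon length with a gene on the opposite strand. In all, 14 members share at least 5% of their exon length with another gene, 13 of them with one on the opposite strand, and the strand setting of the counting was not given in the sources used here. The 12 inward rectifiers had a median of 0.05 with 0 called. Kcnj9 was fitted at -0.11 (SE 0.07), with 95.91, 105.2, 107.9 and 114.1 CPM in GF-ND and 97.32, 100.7, 98.54 and 94.65 CPM in GF-HFD mice, which overlap.

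The 15 accessory members had a median of 0.03 with Kcnab2 and Kcne2 called. Kcnip4 was fitted at 0.15 (SE 0.09) and Kcnmb2 at -0.07 (SE 0.18). The 12 two-pore members had a median of -0.12 with Kcnk9 called. Kcnk1 stood at 30.20, 24.23, 37.17 and 22.70 CPM in GF-ND but within 34.22 to 34.89 CPM in the 4 GF-HFD mice. Its log2 fold change was 0.27 (SE 0.14) with all 8 mice and 0.43 (SE 0.10) without mouse 11, and 8.01% of its exon length overlaps a gene on the opposite strand. The 8 calcium- or sodium-activated members had a median of -0.08 with Kcnt1 lower and Kcnn1 higher. Kcnma1 was fitted at -0.08 (SE 0.09) and Kcnu1 at -0.40 (SE 0.26).

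The 8 members of the EAG, ERG and ELK class had the lowest median, -0.20. In it 6 of 8 were fitted lower (all genes 14446 of 26900) and 0 were called. Kcnh2 was fitted at 0.04 (SE 0.11) and Kcnh7 at -0.15 (SE 0.09). The median of this class and that of the two-pore class turned in sign without mouse 11, to 0.03 and 0.12. The median over all 87 members was 0.04 with TMM scaling and 0.15 without mouse 11. With library totals the number fitted higher went from 49 to 43 of 87 (all genes from 12454 to 10822 of 26900). The accessory median went to -0.02. The calls by direction moved too. Of the calls over all genes at an unadjusted p under 0.05, 38.6% were higher in GF-HFD with TMM scaling and 21.9% with library totals. The members called with library totals were 2 higher and 4 lower, 6.9% of members against 7.05% of all genes. With the filter at 10 CPM they were 2 higher and 6 lower, and 24.0% of all calls were higher. This was 18.6% of the 43 members kept, against 8.7% of all genes.

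**Figure D3:**
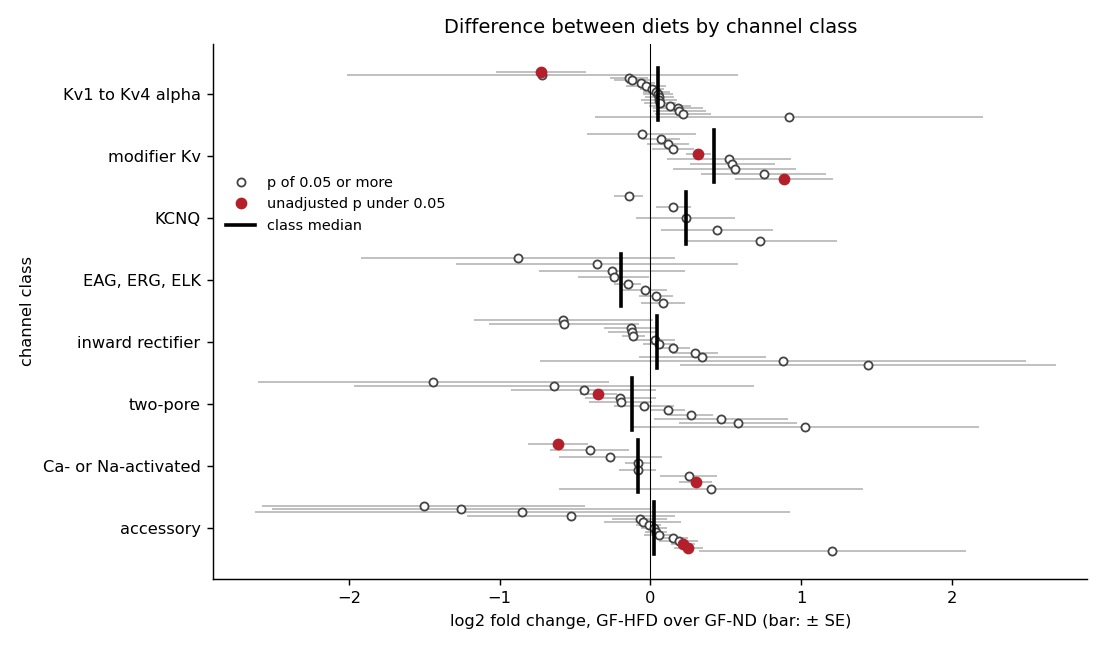
Fitted log2 fold change (GF-HFD over GF-ND) of each of the 87 genes with its standard error, by channel class, with filled points for an unadjusted edgeR p under 0.05 and a black line at each class median. The modifier Kv median lies at 0.42 and the EAG, ERG and ELK median at -0.20, and the widest bars belong to weakly expressed genes.

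The level of a member set how large a difference could be seen. The 10 members at 100 CPM or more and the 34 at 10 to 100 CPM had median standard errors of 0.09 and 0.12 on the log2 scale, the 19 at 1 to 10 CPM 0.23 and the 24 under 1 CPM 0.97. Of the 44 members at 10 CPM or more, 7 were called at an unadjusted p under 0.05 (15.9%), and of the 10355 genes at that level 8.70%. Just above the limit of 10 counts stood Kcne3 with 14 counts over 8 libraries, Kcnj15 with 15, and Kcna7 and Kcnj1 with 16 each. Just below stood Kcnk18 with 4 counts and Kcnk16 with 0. With all 8 mice none of the 4 above that limit had an unadjusted edgeR p under 0.05. Kcnj1 had one only without mouse 9, which held all 4 of its GF-ND counts, so that the fit then set GF-HFD against a group at 0.

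Of the 8 libraries, mouse 11 moved the number of calls most when left out. Among 63 members with a mean of at least 1 CPM, mouse 11 held the highest of 8 values in 24 (38.1%) and the lowest in 5 (7.94%), against 27.1% and 24.9% of 15280 genes at that level. Without mouse 11, 20 of 87 members were called at an unadjusted p under 0.05, 17 higher and 3 lower in GF-HFD, which was 23.0% of members against 23.0% of all genes. The 17 included Kcnk1, Kcnd2, Kcnq3, Kcnip4, Kcnj3, Kcnip2 and Kcnc2, besides the 5 called with all mice. Kcnj3, a G-protein-gated inward rectifier, shares 31.1% of its exon length with a gene on the opposite strand. Without mice 11 and 19, an alternative chosen after seeing the data, 17 of 85 members were called, 14 higher and 3 lower, against 19.3% of all genes. In both cases the members' share, with higher and lower calls pooled, was at the background. Without mouse 11, 52.4% of the calls over all genes were higher (3177 higher, 2890 lower), against 17 of 20 member calls. Without mice 11 and 19 it was 49.4% (2445 higher, 2508 lower), against 14 of 17 member calls. The members' calls thus lay more to the higher side than those of all genes, a difference that was not tested and not matched for level. With all 8 mice, the members at 10 CPM or more had 4 higher and 3 lower calls. All genes at that level had 534 higher and 367 lower calls.

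**Figure D4:**
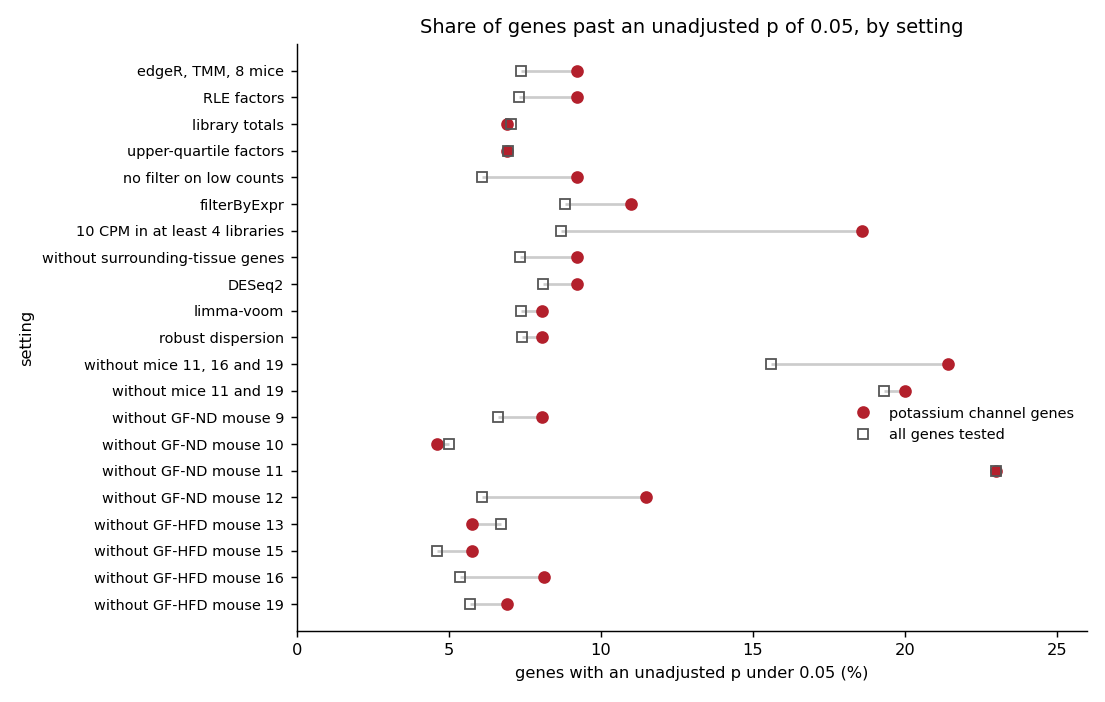
Share of genes with an unadjusted p under 0.05 in each of 21 settings, for the potassium channel genes (filled circles) and all genes tested (open squares). With all 8 mice the shares are 9.20% and 7.38%, and without mouse 11 both are 23.0%.

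Some members were high in the 2 libraries with lens genes. Kcnh1, the EAG channel, stood at 54.82 CPM in mouse 11 and 32.79 CPM in mouse 19, against 12.53 to 16.14 CPM in the other 6. Kcnj12, an inward rectifier, stood at 45.12 and 18.06 CPM, against 6.67 to 10.55 CPM. Kcne4, an accessory subunit, had 128 and 34 counts against 2 to 12, the two-pore channel Kcnk5 70 and 40 counts against 0 to 8, and the accessory subunit Kcne1 36 and 20 counts against 0 in the other 6. These 5 genes were picked after their values were seen, as the members at least 1.5 times higher in both libraries than in any other. They are 5.75% of the 87, against 1.83% of all genes tested. With all 8 mice Kcnh1 and Kcnj12 were fitted at -0.25 (SE 0.48) and -0.58 (SE 0.59), and without mouse 11 at 0.57 and 0.58. Mice 11 and 19 were also highest in the mean log2 CPM of ciliary body genes, at 5.96 and 6.27, against 3.62 to 5.56 in the other 6. Pericyte genes stood at 3.58 and 3.14 in these mice, against 1.59 to 3.02. Müller genes stood at 8.96 and 8.78, against 7.92 to 8.56. What part lens or other tissue has in these values was not tested.

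**Figure D5:**
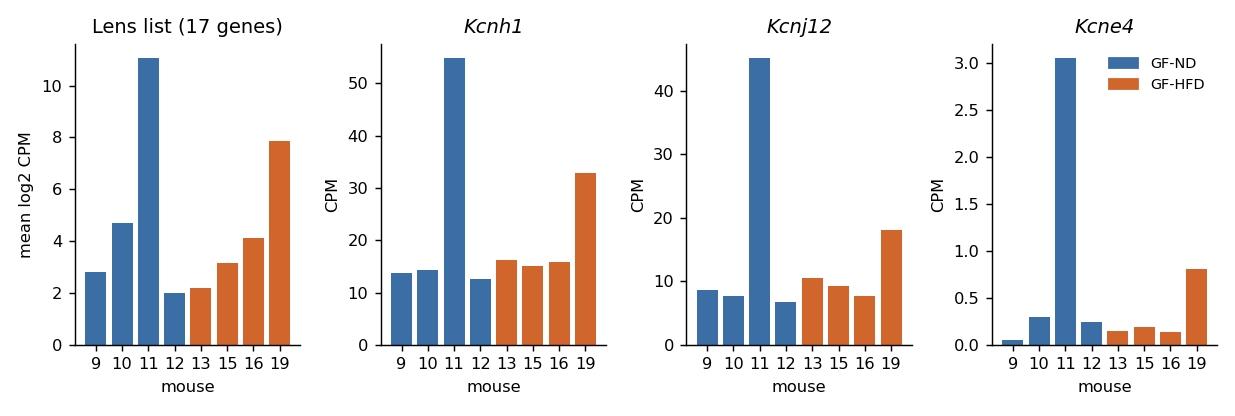
Mean log2 CPM of 17 lens genes, and level in CPM of Kcnh1, Kcnj12 and Kcne4, in each of the 8 mice (blue GF-ND, orange GF-HFD; axes start at 0). Mouse 11 is highest and mouse 19 second in each panel.

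The 3 Kcn genes left out by name showed values between groups as follows. Kcnj10, the main inward rectifier of Müller glia, had 90.4 ± 12.6 CPM in GF-ND and 93.8 ± 4.68 CPM in GF-HFD mice (SD, n = 4 each). Kcnj8, a pericyte channel, had 1.18 ± 0.18 and 1.57 ± 0.56 CPM. Kcnj13, a channel of the pigment epithelium, had 2.36 ± 2.99 and 2.79 ± 1.96 CPM and was highest in mouse 11. None passed the test.

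Genes whose products bind potassium channels or anchor them were taken from a list of 29, all of which were tested. Of these, 2 had an unadjusted edgeR p under 0.05, both lower in GF-HFD, and 0 an adjusted one. This was 6.90% of the list, against 7.38% of all genes. By direction, 6.90% of the list was lower, against 4.53% of all genes, and 0% higher, against 2.85%. Abcc8, the sulfonylurea receptor that joins inward rectifiers into ATP-sensitive channels, stood at 15.98, 22.46, 15.58 and 14.66 CPM in GF-ND and at 12.44, 12.63, 13.50 and 12.88 CPM in GF-HFD mice. Every GF-HFD library lay below every GF-ND library, with a log2 fold change of -0.42 (SE 0.14, unadjusted edgeR p = 0.016; exact permutation p = 0.0286). Its unadjusted p stayed under 0.05 in all 21 settings, with log2 fold changes from -0.48 to -0.27, the smallest in size being that without mouse 10. The pore-forming partner of Abcc8, Kcnj11, was fitted at -0.12 (SE 0.16). Adam23, which with the secreted protein Lgi1 is linked to Kv1 channels at synapses, stood at 52.64, 68.62, 53.94 and 51.89 CPM in GF-ND and at 47.18, 49.22, 47.47 and 46.95 CPM in GF-HFD mice, also with no overlap. Its log2 fold change was -0.25 (SE 0.10, unadjusted edgeR p = 0.028; exact permutation p = 0.0286), and the unadjusted p missed 0.05 in 5 of 21 settings, one of them without mouse 10 (log2 fold change -0.15), the highest library for both genes. Dlg4, the synaptic scaffold PSD95 and one of the most abundant genes of this list, was fitted at -0.07 (SE 0.16).

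A list of 26 genes of potassium transport was also tested whole. It was made up of sodium pump subunits and regulators, cation-chloride cotransporters, sodium-calcium-potassium exchangers and kinases. Of these, 3 were higher and 1 was lower in GF-HFD at an unadjusted edgeR p under 0.05, and 0 at an adjusted one. The 4 together were 15.4% of the list, against 7.38% of all genes. The 3 higher were 11.5%, against 2.85% of all genes and 5.16% of genes at 10 CPM or more. The 1 lower was 3.85%, against 4.53% and 3.54%. Slc24a1, the sodium-calcium-potassium exchanger of the rod outer segment, stood at 1744, 1775, 1260 and 1904 CPM in GF-ND and at 2015, 2433, 2061 and 1898 CPM in GF-HFD mice. GF-ND mouse 12 lay just above GF-HFD mouse 19, and mouse 11 was the lowest. Its log2 fold change was 0.33 (SE 0.14, unadjusted edgeR p = 0.043; exact permutation p = 0.0571), and the unadjusted p missed 0.05 in 12 of 21 settings. The rod list, with a median of 0.31, ran the same way, and its part was not tested. Fxyd6, a regulator of the sodium pump, was fitted at 0.26 (SE 0.10), the pigment-cell exchanger Slc24a5 at 0.63 (SE 0.24) and Slc12a1, a cotransporter known from the kidney and near 1 CPM here, at -0.67 (SE 0.26), each with overlapping groups. The pigment epithelium list, of which Slc24a5 is no member, had a mean log2 CPM of 1.26 to 5.38 in GF-ND and 0.28 to 4.73 in GF-HFD mice, and its part in Slc24a5 was not tested.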

How the data were processed

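The authors sequenced whole-retina RNA as 100-bp read pairs. Per the submitters' processing notes, reads were aligned to GRCm38 with STAR 2.4.2 and assigned to genes with featureCounts (Subread 1.4.6-p1). Raw, unscaled counts were deposited, in a separate table for each library. The 8 libraries come from separate mice, no 2 tables were identical, and among counts from 1 to 12 the ratio of even to odd values was 1.91 to 2.36, so low counts carry less information than their size. Here, genes with at least 10 counts over 8 libraries were scaled by TMM and tested with the quasi-likelihood test of edgeR 4.0.16 in R 4.3.3, after the step had been tested on simulated data. DESeq2 1.42.0 and limma 3.58.1 (voom) served as alternatives. Log2 CPM used a prior count of 2. Exact permutation tests were two-sided over 70 arrangements. Exon lengths, positions and coding sequences came from GENCODE vM21, which is not the annotation release the study names. Genes named are the highest member of each subfamily, the 6 members with the smallest p in each direction, members with no overlap between groups, the 5 highest, those nearest the count limit, listed partner and transport genes with an unadjusted p under 0.05 or the 2 highest levels, and the genes left out by name. Some genes that this rule names are not reported here. Other members named were chosen after their values were seen. The members, classes and lists were chosen with earlier results of these data known.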

Additional observations from a re-analysis of the deposited data

Results flagged for a closer look

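In 44 genes named here, the 4 libraries of each diet group were searched for 1 library far from the other 3, as the gap to its nearest neighbour divided by the range of the group. Of 88 groups, 15 passed the critical value of 0.829. Of these, 6 came from the 10 groups of Kcne1, Kcne4, Kcnh1, Kcnj12 and Kcnk5, which were picked because mice 11 and 19 were high in them, so that these 6 are no independent count. The other 9 came from 78 groups. The critical value is passed by about 1 in 20 groups of independent, normally distributed values. These genes were partly named by their values, share the same mice and include some with few counts. The 9 can therefore not be set against that rate. Mouse 11 was the high library among GF-ND mice for Kcne1 (1), Kcnh1 (0.912), Kcnj12 (0.863), Kcnh7 (0.873) and Kcnma1 (0.95), and the low one for Slc12a1 (0.829). Mouse 19 was the high library among GF-HFD mice for Kcne1 (1), Kcnh1 (0.914) and Kcne4 (0.836). Mouse 10 was the high library among GF-ND mice for Kcnk9 (0.887) and Adam23 (0.861), and mouse 12 the low one for Kcnu1 (0.86), with 49 counts against at least 85. The other 3 rest on few counts. Kcnj1 had 4 counts in GF-ND mouse 9 and 0 in the other GF-ND mice (1), Kcnj15 had 10 counts in GF-HFD mouse 16 and 0 in the other GF-HFD mice (1), and Kcna7 had 0 counts in GF-HFD mouse 15 and 2 in each of the other GF-HFD mice (0.97).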

How the results depend on the processing

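Over 41 named genes and 20 alternatives, 701 of the values kept their direction and side of an unadjusted p of 0.05, 68 lost it, 23 gained it and 7 reversed. Of 34 changes of sign, 27 lay within 1 SE of 0 in both fits and were not counted as reversed. Reversed values were Kcnh1 at 0.57 without mouse 11 and 0.22 both without mice 11 and 19 and without mice 11, 16 and 19, Kcnj12 at 0.58, 0.27 and 0.38 in the same order, and Kcnh7 at 0.02 without mice 11, 16 and 19. Without each mouse in turn Kcnh1 ranged from -0.60 (without mouse 19) to 0.57 and Kcnj12 from -0.89 (without mouse 19) to 0.58. Leaving out 1 mouse at a time gave 4 to 20 members called (all genes 1224 to 6067). This was 4.6% to 23.0% of members, against 4.62% to 23.0% of all genes. The lowest share came without mouse 10 for the members and without mouse 15 for all genes. At an adjusted p, 0 to 1 members were called (all genes 0 to 421). Groups did not overlap in 5 to 20 members, 5.75% to 23.0% of members against 6.45% to 20.2% of all genes. Without 1 mouse, the median log2 fold change ranged from 0.006 to 0.151 over the members, -0.246 to 0.032 in EAG, ERG and ELK, -0.013 to 0.125 in Kv1 to Kv4, -0.012 to 0.155 in accessory, 0.264 to 0.534 in modifier Kv, 0.112 to 0.458 in KCNQ and -0.182 to 0.123 in two-pore genes. Leaving out mouse 11 gave the highest of each of these. Mice 11, 16 and 19 were also left out together, a choice made because fibroblast genes were also high in mouse 16. Then 18 members were called, 21.4% against 15.6% of all genes (3908). In these smaller groups 33 members had no overlap (39.3%, against 34.5% of all genes). Class medians were -0.025 for KCNQ, 0.014 for EAG, ERG and ELK, 0.181 for Kv1 to Kv4, 0.605 for modifier Kv and 0.108 for two-pore. Without mice 11 and 19, 17 members were called, 20% against 19.3% of all genes (4953, of which 55 at an adjusted p). In that setting 25 members had no overlap (29.4%, against 24.8% of all genes). The medians were 0.153 over the members, 0.053 for EAG, ERG and ELK and 0.566 for modifier Kv. The filter at 10 CPM, under which 10291 genes were tested, left 895 genes called. Medians over the fewer members kept were 0.173 for modifier Kv, 0.06 for two-pore and -0.053 for KCNQ. Fitted values of single genes moved too, as for Kcng4 from 0.32 to 0.26. DESeq2 called 53 genes at an adjusted p, and limma-voom gave a median of -0.022 for EAG, ERG and ELK. Upper-quartile scaling left 3 members with no overlap (3.45%, against 3.97% of all genes). The causes of these changes were not tested. Depth limits members under 1 CPM, whose median SE was 0.97 on the log2 scale.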

Other observations

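Some members that lie within 250 kb of each other in the genome differed widely in level. Within that distance lay 11 pairs, made up of 15 members, and 7 of the pairs differed more than 10-fold in CPM per kilobase. Some of these 7 share the same weak gene, Kcna10. The share among other gene pairs at that distance was not computed, so the count is no trait of the family. On chromosome 16 (GRCm38), Kcne2 (chr16:92292389-92298129) stood at 31.8 CPM per kilobase and the nearby Kcne1 (chr16:92345982-92359468) at 0.052, the latter with counts in mice 11 and 19 alone. On chromosome 9, the G-protein-gated rectifier Kcnj5 (chr9:32314707-32344350) stood at 4.80 and Kcnj1 (chr9:32372493-32399197), a channel known from the kidney, at 0.014. The Kv1 cluster on chromosome 3 held Kcna3 at 3.47, Kcna2 at 13.03 and Kcna10 at 0.025 CPM per kilobase, while the one on chromosome 6 held Kcna5 at 30.6, Kcna6 at 7.80 and Kcna1 at 4.72, all detected in every library.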
